A study of Mus musculus with 2 samples.

Results

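Chemokines and their receptors were followed through the stromal vascular fraction (SVF) of gonadal white adipose tissue (gWAT), the mixture of cells that remains once fat cells have been floated off. Every gene whose symbol was Ccl, Cxcl, Cx3cl, Xcl, Ccr, Cxcr, Cx3cr, Xcr or Ackr followed by its family number was taken, which gave 66 gene identifiers among the 28692 in the tables. They comprised 44 ligands, 18 receptors and 4 atypical receptors under 60 symbols. Of the 66, 48 reached 50 UMIs (unique molecular identifiers, each standing for 1 captured transcript) over both libraries and were described in full, namely 29 ligands, 15 receptors and all 4 atypical receptors. The other 18 were too sparse to compare: 10 had no UMI, Ccl1 had 22, Ccr8 had 13, Ccl21b had 9, Ccl20 had 5, Ccr10 had 2, and Cxcl5, Cxcl15 and a second Ccl21a identifier had 1 each.

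The study deleted Pgam1, a glycolytic enzyme, in fat cells and profiled the SVF by droplet single-cell RNA-seq. One library was made for the control and one for the Adipo-Pgam1 KO, from C57BL/6 males of 13 weeks; the labels call the control a wild-type littermate, and the study's methods describe Pgam1 flox/flox littermates without Cre. In the KO, Cre recombinase was driven by the adiponectin promoter, which is active in adipocytes, and those cells are largely removed in making an SVF: the 6 adipocyte markers summed to 6.34 CPM (a gene's UMIs scaled to a library or class total of 1e6 UMIs) in the control and 5.68 CPM in the KO. How many mice were pooled for a library was not given in the sources used here. With 1 library per genotype no difference below could be tested against the spread between animals, and all intervals are 95% intervals of counting error only.

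Chemokines are small secreted proteins that guide leukocytes along gradients and through vessel walls. They act on G protein-coupled receptors carried by particular leukocytes, while the atypical receptors (Ackr) bind chemokines without classical G protein signalling and clear or shuttle them. In adipose tissue the Ccl2 and Ccr2 axis is best known for recruiting monocytes, and Cxcl12, through Cxcr4, for holding cells in place near stroma and vessels.

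A floor of 500 detected genes and a ceiling of 10% mitochondrial UMIs left 3881 of 8522 control barcodes and 958 of 2730 KO barcodes, and 3616 and 937 were kept after removal of predicted doublets, with 30429137 and 9507548 UMIs. None of the kept barcodes occurred in both libraries. The cells fell into 24 clusters, computed without the chemokine genes. Marker lists that hold no chemokine gene gave the 17 named classes among which highest levels were ranked. Proliferating-like, erythroid-like and unnamed cells were left out of that ranking. The 16 named classes with at least 20 cells in each library were compared. KO cells were the deeper ones in all of those 16 classes (B-like, median 3983 against 4892 UMIs per cell). Pgam1 itself stood at 109.6 CPM in the control and 116.2 CPM in the KO (log2 ratio 0.08, -0.02 to 0.18). Its ratio was -0.37 (-0.72 to -0.02) in Pi16 and 0.12 (-0.09 to 0.33) in interstitial fibroblast-like cells. The paper reports markedly lower Pgam1 in the KO for a fibroblast cluster rich in adipocyte markers, which it proposes were preadipocytes. That cluster was not matched to the classes used here. Which of the profiled cells, if any, carry the deletion was not tested. The neutrophil markers summed to 100.8 and 340.9 CPM in the control and the KO, and the nonclassical monocyte-like class was the sole one with cells that carried at least 3 of those 6 markers, 7 of 123 in the control and 9 of 36 in the KO.

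Most chemokine genes were concentrated in 1 or a few classes. In 22 of the 48, 1 class held more than 50% of the CPM summed over classes, against 9.84% of all 13604 genes with the same minimum of UMIs. The median share in the highest class was 46.4% for the chemokine genes and 14.8% for all genes. The highest class was the same in both libraries for 31 of the 48. The share over all genes was not computed, so this count has no background. A UMI counts a transcript's 3′ end once, so length does not enter these levels, but capture differs between genes and levels are compared below across classes rather than between genes.

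**Figure D1:**
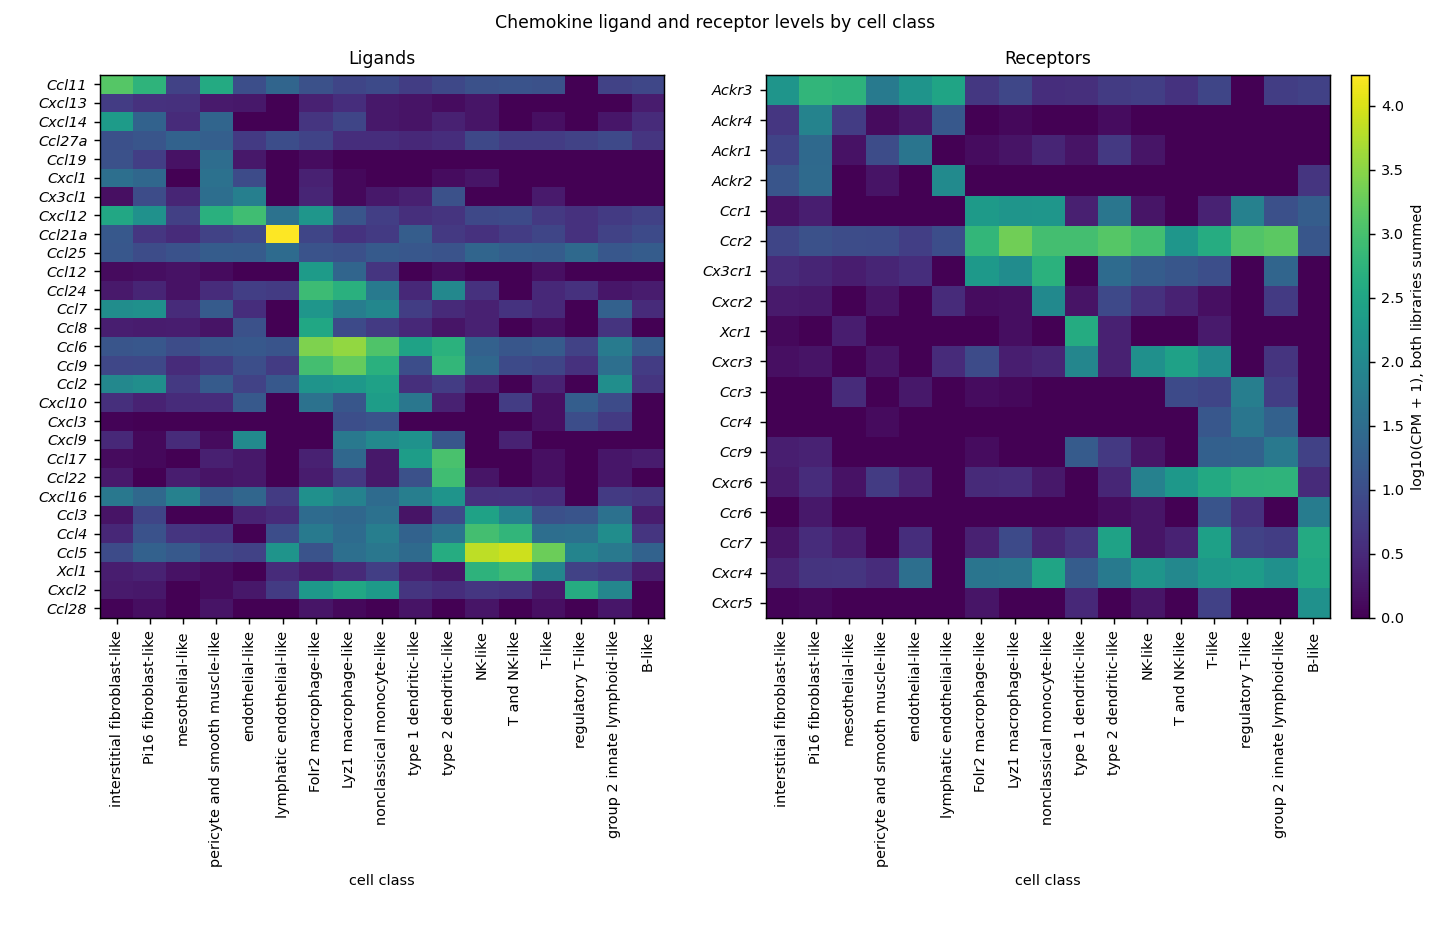
Levels of ligands (left) and receptors (right) with at least 50 UMIs in the 17 named cell classes, both libraries summed, as log10(CPM + 1). Bright cells lie in few classes for most genes: Ccl21a reached 17380 CPM in lymphatic endothelial-like cells, and Xcr1 408 CPM in type 1 dendritic-like cells, while Ccr2 was spread over myeloid and lymphoid classes.

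Stromal and vascular classes held one set of ligands. Ccl11 (eotaxin, which attracts eosinophils) was highest in interstitial fibroblast-like cells, a class named from interstitial preadipocyte markers, at 1480 CPM (1451 to 1511) in the control and 944.1 CPM (903.4 to 986.1) in the KO. Cxcl14 was highest in the same class, at 219.5 and 173.6 CPM. The second class for Ccl11 was the Pi16 fibroblast-like cells, 2.31-fold lower, so the 2 fibroblast classes differed in level rather than in presence of this gene. Ccl21a, which draws Ccr7-bearing dendritic cells and lymphocytes into lymphatics, stood at 17880 and 15490 CPM in lymphatic endothelial-like cells, and that class held 99.4% of its summed class CPM. Cxcl12 was highest in endothelial-like cells, at 981.4 CPM in the control and 615.5 CPM in the KO. Cx3cl1 (fractalkine, a membrane-tethered ligand) peaked there too when the libraries were summed, at 67.6 CPM, but in the KO alone the pericyte and smooth muscle-like class was highest. Ccl19, the other Ccr7 ligand, was highest in the pericyte and smooth muscle-like class at 32.98 and 28.46 CPM, values whose intervals overlap. Of its UMIs there, 85 lay in cluster 21 (53 control and 6 KO cells, 136.8 CPM over both libraries), 8 in cluster 16 and 0 in cluster 9, so 1 small cluster carried the class value. Ccl19 and Ccl21a have near-identical copies in the mouse genome, so reads may have been split among them or dropped.

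Macrophage-like cells split the CC ligands between their Folr2 and Lyz1 classes. Ccl8, a ligand of Ccr8, was almost confined to Folr2 macrophage-like cells (90.4% of its summed class CPM), at 331.4 CPM in the control and 320.8 CPM in the KO. Ccl12 (88.0%) and Ccl24, the second eotaxin, also peaked in the Folr2 class when libraries were summed, at 212.9 and 813.7 CPM. Ccl6 and Ccl9, ligands of Ccr1, instead peaked in the Lyz1 class. Ccl6 reached 3600 CPM in control and 3683 CPM in KO Lyz1 macrophage-like cells, and Ccl9 reached 1637 and 1989 CPM. For Ccl6 the Folr2 class was only 1.36-fold lower.

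Dendritic-like cells and lymphocytes held the remaining abundant ligands. Ccl22, a ligand of the Th2 and regulatory T cell receptor Ccr4, was at 923.8 CPM in control and 556.0 CPM in KO type 2 dendritic-like cells, where 97.5% of its summed class CPM lay, and Ccl17, the other Ccr4 ligand, was at 1026 and 1244 CPM. Cxcl16, ligand of Cxcr6, was near-level over several classes: type 2 dendritic-like cells led the Folr2 macrophage-like class by 1.16-fold. Ccl5, a ligand of Ccr1, reached 7306 CPM in control and 10440 CPM in KO cells of the mixed T and NK-like class, with NK-like cells 1.27-fold lower. Xcl1, which attracts type 1 dendritic cells through Xcr1, was highest in the same mixed class, at 676.1 and 1104 CPM. Ccl3 and Ccl4 peaked in NK-like cells when libraries were summed. Ccl25 and Ccl27a were close to flat, with highest classes that led by 1.11-fold and 1.14-fold, and Ccl28 was a gene of the unnamed cells, at 118.6 CPM in the control and 135.9 CPM in the KO against at most 0.834 CPM in any named class.

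Receptors marked leukocyte classes. With the libraries summed, B-like cells were highest for Ccr7, Cxcr4, Cxcr5 and Ccr6. Cxcr5, the follicular homing receptor, had 93.6% of its summed class CPM there, at 127.9 CPM in the control and 175.0 CPM in the KO. In the control alone Cxcr4 was highest in the nonclassical monocyte-like class, at 268 CPM against 234 CPM in B-like cells. Xcr1, the defining receptor of cross-presenting dendritic cells, had 98.9% in type 1 dendritic-like cells, at 467.0 and 293.5 CPM. Cxcr2, the receptor for neutrophil-attracting CXC ligands, had 81.4% in the nonclassical monocyte-like class, where 23 of its 24 control UMIs and 94 of its 94 KO UMIs came from the cells with neutrophil markers. Ccr2 was broad: its highest class, Lyz1 macrophage-like cells at 2215 and 1483 CPM, held 20.5%, and group 2 innate lymphoid-like cells were 1.43-fold lower. Cxcr6 did not separate group 2 innate lymphoid-like from regulatory T-like cells, whose summed levels were 1.01-fold apart. The T-like class pooled unlike clusters for both genes. Over both libraries Cxcr6 was at 1200 CPM in its cluster 18, above the 561.2 CPM of group 2 innate lymphoid-like cells, and at 126.8 CPM in its cluster 4. Ccr2 was at 1227 and 184.4 CPM in those clusters. Cxcr3 led in the T and NK-like class at 251.2 and 286.8 CPM, and Ccr4 and Ccr3 in regulatory T-like cells on few UMIs, 5 and 10 for Ccr4 and 14 and 8 for Ccr3 in the control and the KO.

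Atypical receptors lay in stroma and vessels. Ackr3, the scavenger of Cxcl12, was highest in Pi16 fibroblast-like cells at 655.1 CPM in the control and 453.6 CPM in the KO, with mesothelial-like cells 1.12-fold lower. Ackr4, which clears Ccl19 and Ccl21, had 76.6% of its summed class CPM in Pi16 fibroblast-like cells. In the KO alone its highest class was the lymphatic endothelial-like one, with 12 KO cells. Ackr2, which clears inflammatory CC chemokines, led in lymphatic endothelial-like cells, at 115.3 and 76.42 CPM with overlapping intervals. Ackr1, the venular receptor known as Duffy, led in endothelial-like cells at 33.31 and 62.04 CPM.

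Highest classes of ligands and receptors, with the libraries summed, were set side by side. Of 34 textbook pairs, both partners reached 50 UMIs in 28, and in 25 of those the highest classes differed; the same share among unrelated genes was not computed. Cxcl3 and its receptor Cxcr2 did share a highest class, the nonclassical monocyte-like one, where Cxcl3 reached only 11.3 CPM. Cxcl12 peaked in endothelial-like cells while its signalling receptor Cxcr4 peaked in B-like cells and its scavenger Ackr3 in Pi16 fibroblast-like cells. Xcl1 and Xcr1 lay in T and NK-like and type 1 dendritic-like cells.

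Neighbouring genes had these highest classes, with no comparison made to genes that are not neighbours. On mouse chromosome 11 (GRCm38) the run chr11:82035571-82305690 holds Ccl2, Ccl7, Ccl11, Ccl12 and Ccl8, which peaked in 3 classes: nonclassical monocyte-like, Folr2 macrophage-like and interstitial fibroblast-like cells. A second run, chr11:83525778-83664683, holds Ccl5, Ccl9, Ccl6, Ccl3 and Ccl4, with 3 highest classes of T and NK-like, Lyz1 macrophage-like and NK-like cells.

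Within a class, ligand UMIs were often held by very few cells and receptor UMIs were not. Among sets of 1 gene in 1 compared class with at least 50 UMIs in the control library, a single cell held 25% or more of the UMIs in 22 of 83 ligand sets (26.5%), in 0 of 47 receptor sets and in 0 of 9 atypical receptor sets, against 0.3% of 68959 sets over all genes; the 25% line was chosen after the data were seen. The median share of the top cell was 13.56% for ligands, 5.1% for receptors and 3.51% for all genes. In control type 1 dendritic-like cells, 78 of 80 Cxcl9 UMIs and 54 of 55 Cxcl10 UMIs lay in 1 and the same cell. Ccl2 and Ccl7 had the same top cell in 7 of the 12 class and library sets where both had at least 20 UMIs, and Ccl3 and Ccl4 in 4 of 11. For Ccl6 and Ccl9 it was 4 of 12, for Cxcl9 and Cxcl10 1 of 3, and for Ccl17 and Ccl22 1 of 2. The share among other pairs of genes was not computed. Why the UMIs lay in so few cells was not tested. The ratios of chemokine genes within the compared classes were also computed without the top cell of each library. Those of the gene lists, of single clusters and of the weighted classes were not.

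**Figure D2:**
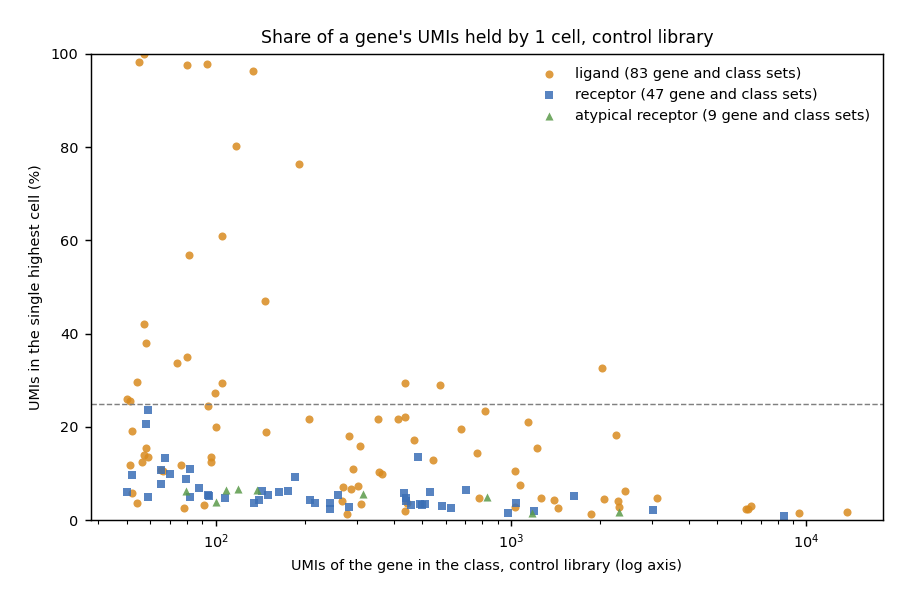
Percent of a gene's UMIs held by the single highest cell of a class (y axis) against the gene's UMIs in that class (log10 x axis), control library, for sets with at least 50 UMIs; the dashed line is at 25%. Points above the line are ligands, 22 of 83 sets, and no receptor or atypical receptor set reaches it.

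Summed over all kept cells, more chemokine genes were higher in the KO library than lower. Of 48, 10 were at least 2-fold higher in the KO, against 2.48% of 13604 genes, and 4 were at least 2-fold lower, against 2.02%. Their median log2 ratio was 0.27, and that of all genes was -0.07. The 10 were Cxcl13 (2.84), Cxcr2 (2.54), Cxcl10 (2.25), Cxcl9 (2.11), Ccr4 (1.64), Ccl7 (1.52), Cxcl3 (1.38), Cxcr4 (1.15), Cxcl2 (1.11) and Ccr7 (1.10), and the 4 lower were Ccl8 (-1.37), Ccl22 (-1.13), Ccr6 (-1.13) and Ackr4 (-1.0). In such a sum, fewer cells of a type and less RNA per cell cannot be told apart. Folr2 macrophage-like cells made up 9.9% of control and 3.7% of KO cells, and with the KO classes weighted to the control's UMI shares Ccl8 had a log2 ratio of -0.13; within that class its ratio was -0.05 (-0.36 to 0.25). With that weighting Cxcr4 (0.85), Ccr4 (0.50), Ccr7 (0.97), Ccl22 (-0.74) and Ackr4 (-0.89) were also under 2-fold. Ccl12 went from 0.16 to 1.42, and Ccl2 (1.09), Ccl3 (1.04), Ccl19 (1.04), Ccr3 (-1.43) and Ccr9 (-1.27) passed 2-fold. Ccr6 was at -0.11 under a looser cell filter of 200 genes and 20% mitochondrial UMIs, and Ccl22 was -0.54 under a stricter cell filter of 1000 genes and 5% mitochondrial UMIs. Cxcl13, the B cell follicle chemokine, rested on 26 control and 58 KO UMIs, and a control barcode removed as a predicted doublet held 689 more. Without the cells with neutrophil markers the Cxcr2 ratio was 0.52 and that of Cxcl3 was 0.68, and without the top cell of each library that of Cxcl2 was 0.94.

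Within the 16 compared classes, 164 sets of 1 chemokine gene in 1 class had at least 50 UMIs. The KO was at least 2-fold higher in 44 of them (26.8%), against 1.66% of 81756 sets over all genes, and at least 2-fold lower in 19 (11.6%), against 3.74%. The 50 UMIs were summed over both libraries, for all genes alike, so a set could enter through 1 library. Sets that did so were bound to pass 2-fold. Examples are Cxcl9 in the nonclassical monocyte-like class (2 control and 113 KO UMIs) and Ccl12 in the Lyz1 class (105 and 1). With the requirement that the ratio also pass without the top cell of each library, 28 were higher (background 1.17%) and 16 lower (background 3.64%). By role, 21 of 102 ligand sets were higher and 10 lower on that stricter count, 7 of 51 receptor sets were higher and 4 lower, and 0 of 11 atypical receptor sets were higher and 2 lower. Without the 16 sets whose level was under 5% of the gene's highest class, a line also chosen after the data were seen, 148 sets remained. Of these, 39 were higher and 10 lower, so that 9 of the 19 lower sets were of this low kind. On the count that also requires passing without the top cells, 25 were higher and 9 lower. The shares over all genes at this line were not computed, so these counts have no background. Counts of cells with a UMI are given below without thinning and grow with depth, which was greater in the KO.

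**Figure D3:**
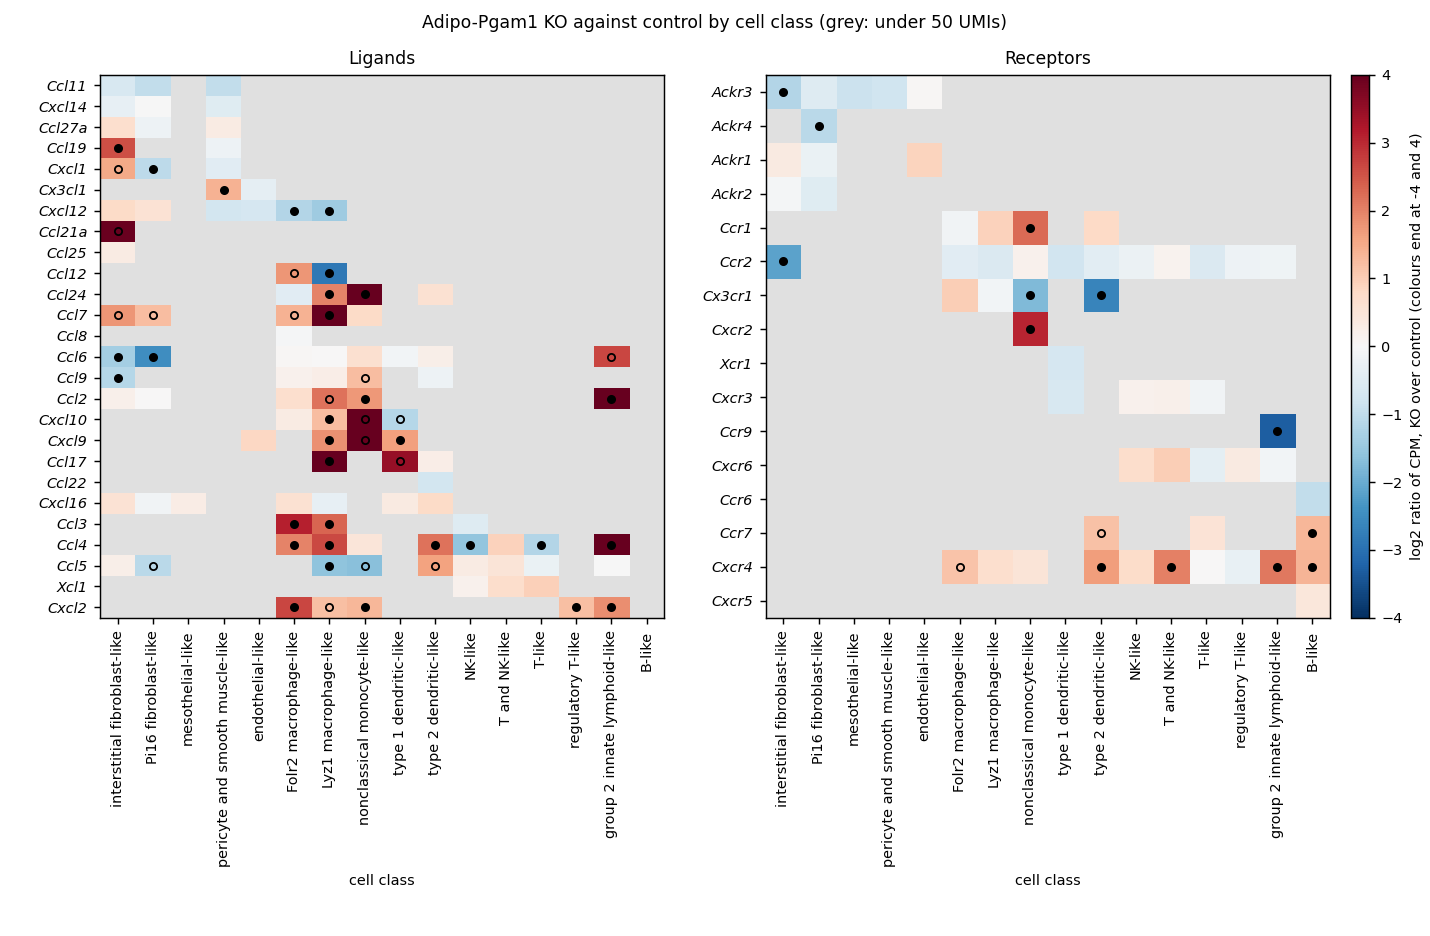
Log2 ratio of KO to control CPM for chemokine genes (rows) in each compared class (columns), ligands on the left and receptors on the right. Filled dots mark ratios past 2-fold with and without the top cell of each library, open dots those past 2-fold only with it, and grey sets had under 50 UMIs. Higher ratios are most numerous among ligands of the Lyz1 macrophage-like (9 of 15) and nonclassical monocyte-like (6 of 10) classes, where 1.75% and 3.31% of all genes were higher. Of these ligand sets, 7 and 3 also passed without the top cells. In the KO Lyz1 class the top cell was the same for 5 ligands.

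Cxcr4 was the receptor past 2-fold in the most classes, higher in the KO in 5 of the 10 classes measured and lower in 0. In B-like cells it stood at 234.0 CPM (198.0 to 274.5) in the control and 597.4 CPM (502.6 to 705.0) in the KO, a log2 ratio of 1.35 (1.01 to 1.69) that was 1.37 without the top cells. Of the B-like cells, 64 of 133 (control) and 35 of 38 (KO) held a Cxcr4 UMI. After thinning every cell to 2000 UMIs the shares were 34.4% and 75%, against 0.185% of control and 0 of 148 KO interstitial fibroblast-like cells, which allows a share of up to 2.03%; those cells were the deeper ones, with medians of 11169 and 13735 UMIs against 3983 and 4892 in B-like cells. The B-like values of the libraries lay apart by more than counting error. In group 2 innate lymphoid-like cells Cxcr4 went from 62.95 to 274.2 CPM (2.12, and 1.56 without the top cells, 1 KO cell having held 41 of 111 UMIs). The mixed T and NK-like class had 46.95 and 191.2 CPM (2.03), and type 2 dendritic-like cells 37.21 and 118.9 CPM (1.68). The T-like class did not share the difference, at 183.1 and 186.4 CPM (0.03, -0.29 to 0.34), nor did regulatory T-like cells (-0.29, -0.99 to 0.42). Folr2 macrophage-like cells passed with all cells (1.15) and not without the top cells (0.87). The ligand Cxcl12 was at 177.7 and 79.41 CPM in Folr2 macrophage-like cells (-1.16, -1.81 to -0.58, and -0.80 under the looser cell filter), and its ratio was -0.67 in endothelial-like and 0.75 in interstitial fibroblast-like cells.

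**Figure D4:**
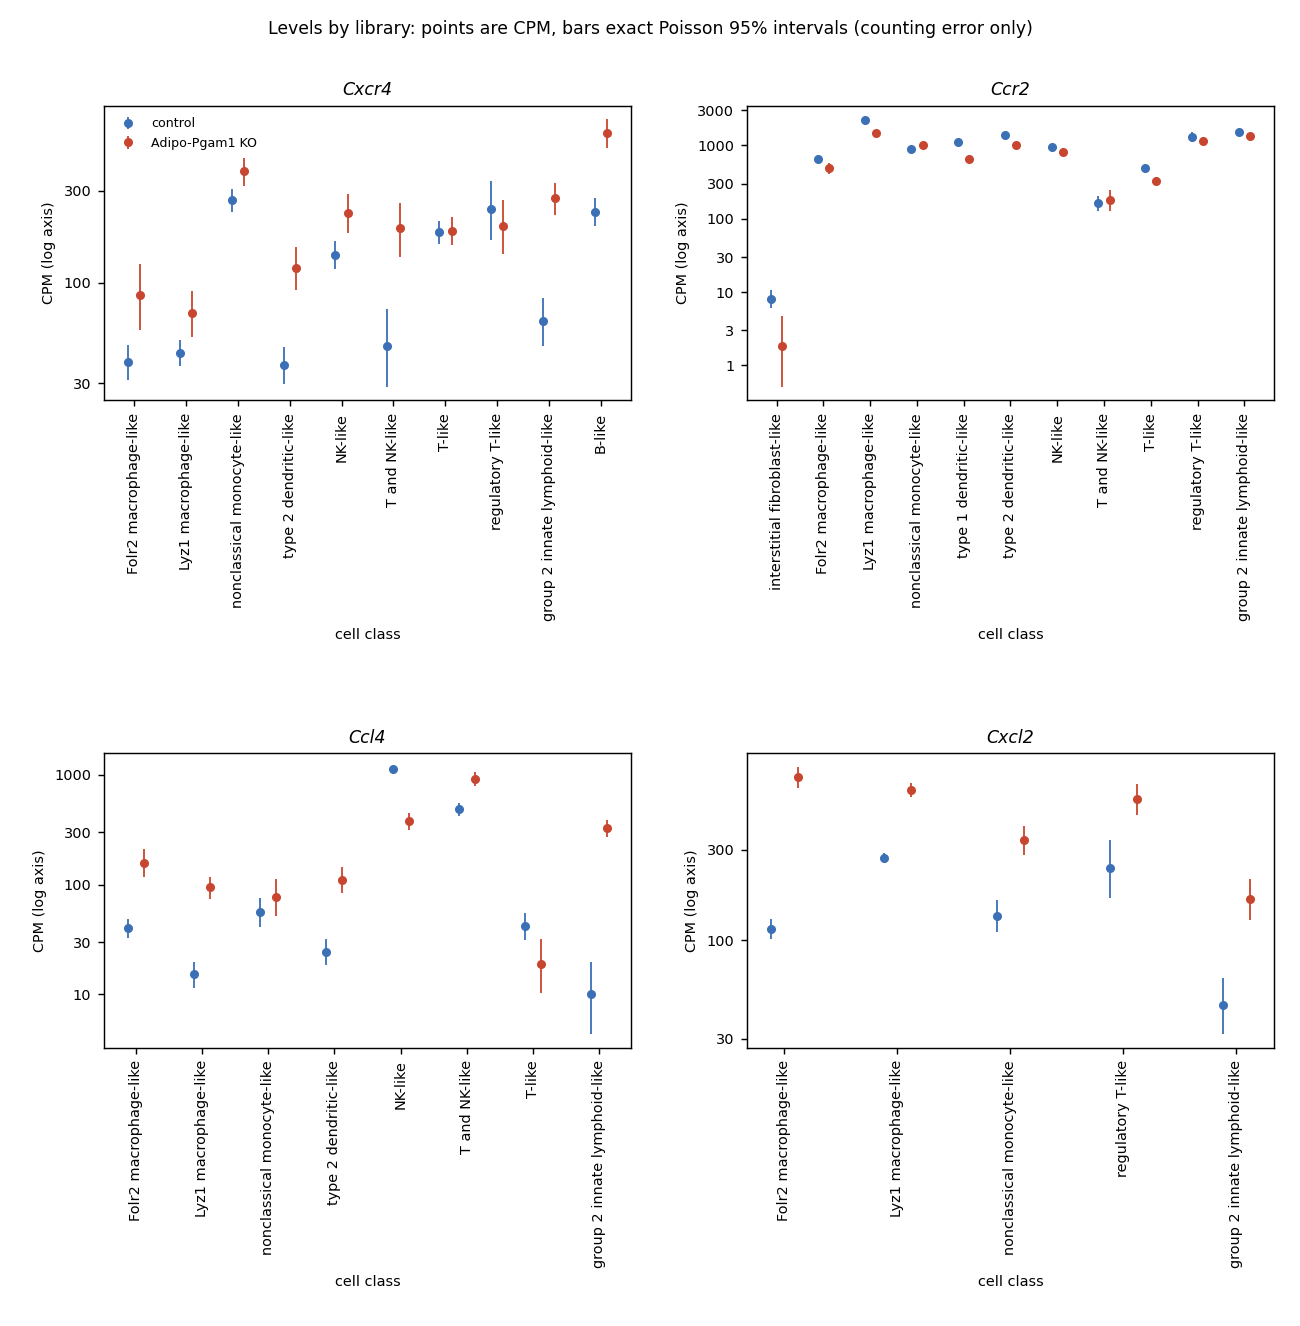
CPM of Cxcr4, Ccr2, Ccl4 and Cxcl2 (log axis) in each compared class with at least 50 UMIs of the gene, control and KO side by side, with exact Poisson 95% intervals of counting error (1 library per genotype). Cxcr4 is higher in the KO library in B-like cells (234.0 and 597.4 CPM), Ccl4 lower in NK-like cells (1119 and 377.1 CPM), Cxcl2 higher in Folr2 macrophage-like cells (114.4 and 727.4 CPM), and Ccr2 close between the libraries in most classes.

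Ccr7, which guides cells toward lymphatics and lymph nodes, was the other receptor higher in KO B-like cells, at 273.0 and 687.0 CPM (1.33, 1.01 to 1.65). Type 2 dendritic-like cells had 220.1 and 494.7 CPM (1.17, and just short of 2-fold without the top cells), in 20 of 182 and 11 of 36 cells. The cluster of that class had a mean z-score of 2.589 for type 2 and of 1.985 for mature dendritic markers. The part of mature dendritic cells in its Ccr7 ratio was not tested. T-like cells had a ratio of 0.54. Cxcr5 in B-like cells differed by less (0.45, -0.13 to 1.01). In the same B-like cells 3 of 8 measured immediate early genes, which respond to stimulation and to tissue dissociation, were at least 2-fold higher in the KO (Egr1 2.08, Nr4a1 1.68, Jun 1.38), against 1.9% of all genes in that class, and in group 2 innate lymphoid-like cells 3 of 9 were, against 2.01%. In type 2 dendritic-like cells, where Cxcr4 was also higher, 0 of 10 were higher and 1 lower (Egr1 -1.58). In regulatory T-like cells 3 of 8 were higher (Fosb 1.40, Fos 1.08, Zfp36 1.06), against 7.11% of all genes, while Cxcr4 was at -0.29. Their part in the Cxcr4 and Ccr7 values was not tested.

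In the nonclassical monocyte-like class receptors and cell type markers both differed between the libraries. Cx3cr1, the fractalkine receptor that nonclassical monocytes carry at high level, was at 654.0 CPM in the control and 193.5 CPM in the KO (-1.76, -2.13 to -1.40), found in 104 of 123 and 21 of 36 cells. Ccr1, a receptor of neutrophils and monocytes, was at 75.66 and 360.1 CPM (2.25, 1.80 to 2.72), and Cxcr2 at 30.78 and 252.6 CPM (3.04). Over the same cells the 6 nonclassical monocyte markers summed to 2520 CPM in the control and 887 CPM in the KO, and the 6 neutrophil markers to 2106 and 8281 CPM. The cluster of this class had nearly equal mean z-scores, 3.814 for nonclassical monocyte and 3.787 for neutrophil markers. With the cells carrying neutrophil markers left out, Cx3cr1 was at 666.5 and 210.2 CPM and Ccr1 at 56.19 and 245.2 CPM, so the direction of both was the same there. Cxcr2 then had 1.31 CPM in the control and 0 in the KO. The nonclassical monocyte markers were not summed again without those cells. Whether the remaining cells were of the same type in both libraries was not tested. Ccr2 in this class did not differ beyond counting error (0.16, -0.02 to 0.34).

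Other receptor differences were single. Ccr9, a gut-homing receptor, was at 73.02 CPM in control group 2 innate lymphoid-like cells and 4.94 CPM in the KO; with the 2 KO UMIs raised to the floor of 3 the log2 ratio was -3.30, but only 14 of 177 control cells held a UMI. Cx3cr1 in type 2 dendritic-like cells also had 2 KO UMIs, at 35.85 and 3.84 CPM (-2.64 with the floor). Ccr2 was not 2-fold apart in any class where it reached 5% of its highest level, with ratios from -0.77 in type 1 dendritic-like cells to 0.16 in nonclassical monocyte-like cells; in Lyz1 macrophage-like cells it was at 2215 and 1483 CPM (-0.58, -0.67 to -0.49). Cxcr3 likewise stayed within 2-fold in every class measured, from -0.65 to 0.19. Xcr1 in type 1 dendritic-like cells was at 467.0 and 293.5 CPM (-0.67, -0.95 to -0.39).

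Ackr3 and Ackr4 were lower in KO fibroblast-like cells. Ackr3 in interstitial fibroblast-like cells was at 185.2 CPM (353 of 623 cells) in the control and 82.13 CPM (62 of 171 cells) in the KO, a log2 ratio of -1.17 (-1.41 to -0.94, and -0.90 under the looser cell filter). It had ratios of -0.53 in Pi16 fibroblast-like and -0.87 in mesothelial-like cells and 0.06 in endothelial-like cells. Ackr4 in Pi16 fibroblast-like cells was at 88.79 and 41.94 CPM (-1.08, -1.58 to -0.62), a ratio that was just short of 2-fold with each cell weighted equally. Ackr2 was within 2-fold in both fibroblast-like classes (-0.50 and -0.09), and Ackr1 in its 3 classes (-0.27 to 0.90). Ccl11, a stromal ligand, had ratios of -0.65 in interstitial fibroblast-like, -0.99 in Pi16 fibroblast-like and -0.98 in pericyte and smooth muscle-like cells, and of -0.68, -1.18 and -1.41 without the top cells, the latter pair past 2-fold. In the pericyte and smooth muscle-like class Ccl11 was a gene of clusters 21 (1084 and 810 CPM) and 9 (448.7 and 90.71 CPM, from 7 KO UMIs), and cluster 16, which held 80 of 298 control and 20 of 41 KO cells, had 4.62 and 3.72 CPM.

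Among stromal ligands, Ccl19 was higher in the KO over many cells. Ccl19 in interstitial fibroblast-like cells was at 4.56 CPM in the control and 27.1 CPM in the KO (2.57, 1.90 to 3.27), in 23 of 623 and 33 of 171 cells, and the ratio was 2.67 without the top cells. Cx3cl1 in pericyte and smooth muscle-like cells was at 26.79 and 70.04 CPM (1.39, 0.73 to 2.02), but 94 of its UMIs there lay in cluster 16, whose share of the class differed between the libraries as given for Ccl11. Within cluster 16 it was at 71.58 and 119.1 CPM, a ratio of 0.74 that is not 2-fold. By contrast, Ccl7 in interstitial fibroblast-like cells, at 73.52 and 252.5 CPM (1.78), had 296 of its 541 KO UMIs in 1 cell and a ratio of 0.93 without the top cell of each library, and Cxcl1 there had a ratio of 1.5 with all cells and 0.89 without the top cells. The KO top cell of that class was the same for Ccl2, Ccl7 and Cxcl1. Cxcl1 in Pi16 fibroblast-like cells was at 28.19 and 13.66 CPM (-1.05, -1.97 to -0.23), a ratio that was -0.34 with classes set by each cell's own markers.

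Several inflammatory ligands were higher in KO macrophage-like cells. Cxcl2, a neutrophil attractant, was at 114.4 CPM in control Folr2 macrophage-like cells and 727.4 CPM in KO ones (2.67, 2.41 to 2.93, and 2.11 without the top cells), in 41 of 358 and 12 of 35 cells. Its ratio in the Lyz1 class was 1.20, and 0.75 without the top cells. Ccl4 in the Folr2 class was at 40.16 and 158.8 CPM (1.98), and Ccl3 at 15.82 and 136.6 CPM (3.11), the latter with 32 of 43 KO UMIs in 1 cell and a ratio of 1.62 without the top cell of each library. In the Lyz1 class Ccl3 had 14.97 and 75.47 CPM (2.33) and Ccl7 13.65 and 295.6 CPM (4.44, and 2.23 without the top cells). A single KO cell of the Lyz1 class, with 28937 UMIs, was the top cell for Ccl2, Ccl3, Ccl4, Ccl7 and Cxcl2. The ratios of these 5 ligands with all cells therefore share that cell. Ccl24 was higher in the KO Lyz1 class, at 321.9 and 1263 CPM (1.97, 1.85 to 2.09), in 106 of 292 and 17 of 61 cells, while its ratio in the Folr2 class was -0.46 (-0.68 to -0.25). The highest class of Ccl24 differed between the libraries. With classes set by each cell's own markers, however, the Lyz1 ratio of Ccl24 was 0.14 and that of Ccl3 was 0.75, neither past 2-fold. Ccl12 and Ccl7 in the Folr2 class (1.76 and 1.40) were 0.93 and 0.63 without the top cells. Ccl6 differed little in either class, with ratios of 0.03 (-0.03 to 0.09) and 0.05 (-0.05 to 0.15).

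The macrophage-like classes also differed in other inducible genes. Of the NF-kappaB and interferon inducible genes measured, 5 of 8 were at least 2-fold higher in KO Folr2 macrophage-like cells, led by Il1b (2.81), Tnf (1.97) and Tnfaip3 (1.35), against 1.97% of all genes in that class, and 4 of 10 in the Lyz1 class, led by Il6 (3.32) and Tnf (2.51), against 1.75%. Over all kept cells 3 of the 12 were higher (2.48% of all genes), Il6 by 2.81, Tnfaip3 by 1.28 and Il1b by 1.03. Such differences were not limited to macrophage-like cells. In Pi16 fibroblast-like cells Ifit3 (2.44), Isg15 (2.23) and Ifit1 (2.09) were higher, against 1.44% of all genes there. In endothelial-like cells Ifit1 (-1.66) and Isg15 (-1.30) were lower, against 3.49%. The other measured genes of the list were within 2-fold in those 2 classes. The classical monocyte markers summed to 121 CPM in control and 986 CPM in KO Lyz1 macrophage-like cells. Their part in the ligand values was not tested. Only 35 KO cells made up the Folr2 class.

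Ccl4 went the other way in NK-like cells. It was at 1119 CPM (1055 to 1186) in the control and 377.1 CPM (313.4 to 449.9) in the KO, a log2 ratio of -1.57 (-1.85 to -1.30) that was -1.62 without the top cells but -0.44 under the stricter cell filter, in 114 of 236 and 32 of 51 cells. After thinning to 2000 UMIs, 37.6% of control and 44% of KO NK-like cells held a Ccl4 UMI, against 0.185% of control and 0 of 148 KO interstitial fibroblast-like cells (up to 2.03%). The lower KO level was therefore not accompanied by a lower share of cells with a UMI. Ccl3 in the same cells had a ratio of -0.53 (-0.93 to -0.15), and Ccl5 had 6212 and 7768 CPM (0.32). In the mixed T and NK-like class Ccl4 was at 486.0 and 912.8 CPM (0.91, 0.62 to 1.20). The Ccl4 values of group 2 innate lymphoid-like cells, 10.07 and 326.0 CPM (5.02), came from 4 cells in each library. The KO top cell for Ccl4 there was also that of Ccl3, Ccl6, Ccl9 and Cxcr4.

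Cxcl9 and Cxcl10, the interferon-induced ligands of Cxcr3, rested largely on single cells. In the nonclassical monocyte-like class Cxcl9 was at 2.57 CPM in the control and 303.6 CPM in the KO, with 113 of 113 KO UMIs in 1 cell. Cxcl10 there was at 20.52 and 655.6 CPM, with 239 of 244 KO UMIs in 1 cell, and its ratio of 5.00 was 0.86 without the top cells. In type 1 dendritic-like cells Cxcl9 had 80 control UMIs in 3 of 72 cells and 130 KO UMIs in 6 of 26 cells. Endothelial-like cells were the class with Cxcl9 in more cells, 21 of 151 and 14 of 60, at 84.56 and 151.4 CPM (0.84, 0.31 to 1.36). Cxcr3 itself was within 2-fold in all 4 classes measured. The dendritic ligand Ccl17 followed the same pattern: in KO type 1 dendritic-like cells 274 of 278 UMIs lay in 1 cell, and its type 2 dendritic-like ratio went from 0.28 to -0.87 without the top cells. Ccl22 in type 2 dendritic-like cells went from -0.73 to -2.35.

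Ccl2, the monocyte attractant best known in adipose tissue, was spread over fibroblast-like and myeloid classes and was not a simple case. Over all kept cells its log2 ratio was 0.88 (0.77 to 0.98). In Pi16 and interstitial fibroblast-like cells it was at 123.5 and 123.9 CPM (0.00) and at 90.49 and 105.0 CPM (0.21, -0.01 to 0.44). In those classes 86 of 127 and 153 of 225 KO UMIs lay in 1 cell each, and without the top cells the ratios were -1.24 and -0.93. Over both libraries, Ccl2 was at 66.67 CPM in cluster 0 and 708.6 CPM in cluster 11 of the interstitial class. Cluster 11 held 116 of its 623 control and 49 of its 171 KO cells. Lyz1 macrophage-like cells had 114.7 and 514.5 CPM (2.16), with 291 of 409 KO UMIs in 1 cell and a ratio of 0.92 without the top cells. Group 2 innate lymphoid-like cells had 6.30 and 348.3 CPM (5.79), from 2 of 177 and 5 of 60 cells. In the nonclassical monocyte-like class it was at 150.0 and 497.1 CPM (1.73), from 6 and 5 cells. The KO top cell for Ccl2 there was also that of Ccl7 and Cxcl10. The receptor Ccr2 had ratios of -0.58 in Lyz1 macrophage-like, -0.16 in group 2 innate lymphoid-like and 0.16 in nonclassical monocyte-like cells. In interstitial fibroblast-like cells its ratio was -2.13, from 52 and 4 UMIs and under 5% of its highest class. In Pi16 fibroblast-like cells it had under 50 UMIs and was not compared.

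Cxcl2 passed 2-fold in all 5 classes measured, each time higher in the KO. Besides the macrophage-like classes these were group 2 innate lymphoid-like (45.33 and 165.5 CPM, 1.87), nonclassical monocyte-like (134.6 and 338.6 CPM, 1.33) and regulatory T-like cells (241.4 and 557.2 CPM, 1.21, from 5 cells in each library). In the nonclassical monocyte-like class 57 of 105 control and 83 of 126 KO UMIs lay in the cells with neutrophil markers. Other sets past 2-fold were carried by few cells. In KO Lyz1 macrophage-like cells 105 of 107 Ccl17 UMIs lay in 1 cell, as did 90 of 98 Ccl21a UMIs in KO interstitial fibroblast-like cells and 44 of 56 Ccl24 UMIs in the KO nonclassical monocyte-like class. Ccl12 in Lyz1 macrophage-like cells had 105 control UMIs in 5 cells and 1 KO UMI (-2.87 with the floor). Ccl5 in type 2 dendritic-like cells was at 307.2 and 929.9 CPM (1.60, and 0.94 without the top cells). Ccl9 in the nonclassical monocyte-like class was at 343.7 and 811.5 CPM in 82 of 123 and 20 of 36 cells (1.24, 0.85 without the top cells and -0.40 by each cell's own markers).

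For 4 of the genes above, the sequence upstream of the start is shown because 3 of them are inflammatory ligands that were higher in the KO over all cells and Cxcr4 is the receptor that was higher in the most classes. The stretches are from RefSeq on GRCm38.p6 and run from 250 to 51 bases before the start, read 5′ to 3′ along the gene's strand: Cxcl2 at chr5:90903649-90903848 (plus), Cxcl10 at chr5:92348940-92349139 (minus), Cxcl9 at chr5:92328130-92328329 (minus) and Cxcr4 at chr1:128592350-128592549 (minus). Capitals mark matches, on either strand, to the GAS spelling TTCNNNGAA, the ISRE spelling GAAANNGAAA or the NF-kappaB consensus.
Cxcl2: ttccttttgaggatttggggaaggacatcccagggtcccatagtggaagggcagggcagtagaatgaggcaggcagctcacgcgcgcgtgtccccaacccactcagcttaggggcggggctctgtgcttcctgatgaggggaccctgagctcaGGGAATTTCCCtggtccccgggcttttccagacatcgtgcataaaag
Cxcl10: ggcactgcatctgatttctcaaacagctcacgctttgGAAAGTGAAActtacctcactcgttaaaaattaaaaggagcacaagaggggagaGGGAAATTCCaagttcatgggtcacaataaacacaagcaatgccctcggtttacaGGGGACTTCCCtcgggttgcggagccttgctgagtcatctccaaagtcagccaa
Cxcl9: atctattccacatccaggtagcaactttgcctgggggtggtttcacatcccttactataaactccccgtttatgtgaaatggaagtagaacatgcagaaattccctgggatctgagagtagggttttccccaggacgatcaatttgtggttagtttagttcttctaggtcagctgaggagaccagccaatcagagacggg
Cxcr4: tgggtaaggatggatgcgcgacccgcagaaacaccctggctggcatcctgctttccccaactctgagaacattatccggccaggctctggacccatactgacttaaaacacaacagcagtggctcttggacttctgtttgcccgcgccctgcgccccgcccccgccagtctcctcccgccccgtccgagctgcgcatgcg

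Cxcl2 held 1 NF-kappaB match, from 97 to 87 bases before the start. Cxcl10 held an ISRE match from 213 to 204 bases before the start and NF-kappaB matches from 159 to 150 and from 104 to 94 bases before it. In the Cxcl9 and Cxcr4 windows these letters were not found. Of 53 promoter entries for 46 chemokine symbols, 11 held an NF-kappaB match, 3 an ISRE match and 3 a GAS match, while of 32851 promoters of all genes 7.3%, 3.0% and 7.0% did. A match is a run of letters and not evidence that a factor was bound.

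Genes around the chemokine system were read against the shares of all genes over all kept cells, 2.48% higher and 2.02% lower. Of 16 genes that act below the receptors, such as G protein subunits, arrestins and Rac2, 1 was at least 2-fold higher over all kept cells, Rgs1 (1.40), a brake on chemokine receptor signalling, and 0 were lower, with a median log2 ratio of 0.01. By class, Rgs1 was past 2-fold in type 2 dendritic-like (2.25), regulatory T-like (2.21), group 2 innate lymphoid-like (1.73) and NK-like cells (1.57), and was 0.82 in Lyz1 macrophage-like, 0.48 in T and NK-like and 0.16 in T-like cells. Of 6 chemokine-like genes outside the naming rule 1 was lower, Pf4 (-1.27), a platelet and macrophage chemokine; within Folr2 macrophage-like cells, which held 10078 of its 11551 control UMIs, its ratio was -0.10 (-0.19 to -0.01). Of 10 immediate early genes 0 passed 2-fold over all kept cells, with a median of 0.44 and sums of 4263 and 5828 CPM. In Pi16 fibroblast-like cells Atf3 (3.00), Fosb (1.96) and Nr4a1 (1.90) led those at least 2-fold higher, against 1.44% of all genes there. In Folr2 macrophage-like cells Nr4a1 (1.43) and Atf3 (1.35) were higher, against 1.97%. In NK-like cells Fosb (-1.34) and Egr1 (-1.09) were lower, against 2.86%. Their part in the chemokine values of these classes was not tested.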

How the data were processed

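The data were 10x Chromium 3′ single-cell RNA-seq of gWAT SVF, 1 library per genotype. Per the labels, the authors aligned to mm10 and counted with Cell Ranger 3.0.1, with Seurat 3.1.5 in R 4.0.1 used downstream; the deposited matrices hold raw UMI counts per gene and barcode with no normalization. Barcodes under 500 genes or over 10% mitochondrial UMIs were left out, and doublets were removed by Scrublet score (0.8% per 1000 barcodes). Counts were scaled to 10000 per cell, and 2000 variable genes without the chemokine genes, 30 components and Leiden clustering at resolution 0.5 (scanpy 1.11.5, leidenalg 0.10.2) gave clusters, named from fixed marker lists. Parts of the naming rule, the 5% level and the 25% line were set after the data were seen.

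UMIs were summed by class and library to CPM with exact Poisson intervals, and ratios have exact conditional binomial intervals, both at 95% and for counting error only. Counts under 3 were set to 3 in ratios. Named genes were those with at least 50 UMIs, by highest class, those past 2-fold, and their cognate partners; genes of pathway lists were named for the 3 largest changes. The chemokine genes and lists were chosen with earlier results of these data known. With 1 library per genotype there was no test and no p-value. The values of 1 receptor gene, counted among the sets, are not reported here. The scripts were tested on simulated data. TMM and median-of-ratios factors (edgeR 4.0.16) and other filters, clusterings and weightings were tried as alternatives.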

Additional observations from a re-analysis of the deposited data

How the results depend on the processing

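With 1 library per genotype, animals cannot be separated from genotypes, and small KO classes limit every value: ligand ratios often rest on a few cells. Of the 77 values past 2-fold, 76 stayed past it under TMM and 76 under median-of-ratios factors, 74 without cells with neutrophil markers, 68 with each cell weighted equally, 64 without doublet removal and 57 without the top cell of each library. Of the 63 within classes, 58 stayed with the chemokine genes allowed in the clustering, 49 at clustering resolution 1.0 and 35 with classes set by each cell's own markers. No paired analysis was possible because each group has 1 library.

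The count higher within classes (44) was 18 with a looser cell filter (200 genes, 20% mitochondrial) and 17 with a stricter one (1000 genes, 5%), under which 38 and 49 of the 77 values could not be had. The count lower within classes (19) was 5 with the stricter filter, 34 without doublet removal, 36 with a gene minimum of 20 UMIs and 10 without genes under 5% of their highest class. The count lower over all kept cells (4) was 2 with each cell weighted equally. The highest class was kept for 24 and 23 of 48 genes under the looser and stricter filters and for 30 at resolution 1.0.

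Signs turned in these cases, whose cause was not tested. Ccl4 in T-like cells (-1.16) was 0.46 under the looser filter, 0.58 without doublet removal, 0.43 at resolution 1.0 and 0.98 by own markers. Cxcl13 over all kept cells (2.84) was -2.02 without doublet removal, where 1 control barcode held 689 of 803 UMIs. By own markers Ccl12 in Lyz1 macrophage-like cells was 0.87, Ccl5 and Ccl9 in the nonclassical monocyte-like class were 3.05 and -0.40, and Cxcl2 in regulatory T-like cells was -0.29. Ccl9 in interstitial fibroblast-like cells was 0.01 with each cell weighted equally. Without the top cells Ccl5 in Pi16 fibroblast-like cells was 0.00, Ccl6 in group 2 innate lymphoid-like cells -0.47 and Ccl5 in the nonclassical monocyte-like class 0.70.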
